A study of Drosophila melanogaster with 6 samples.

Results

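The nuclear genes for the proteins of the mitochondrial ribosome were followed in enteroblasts (EBs) of the adult Drosophila midgut. The members were all genes whose symbol starts with mRpL or mRpS and a number, each read from its transcript with the highest mean. The rule found 73 genes of 17321 in the table, of which 47 carried a large subunit (L) symbol and 26 a small subunit (S) symbol. EBs were sorted by FACS from females aged 16 to 18 days and kept at 25 °C, and their mRNA was amplified before RNA-seq. The 3 libraries of Sox21a EBs came from flies homozygous for a Sox21a mutation, and the 3 libraries of control EBs came from flies that the methods give as Sox21a/+ and the labels as wild-type. All 6 carried Su(H)GBE-Gal4 and UAS-CD8::GFP, so that cells were taken by the activity of a Notch-responsive driver. Each library was a pool of many flies, and the labels name the anterior midgut as its source.

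Mitochondria keep a ribosome of bacterial descent that makes a small set of hydrophobic subunits of the respiratory chain and of ATP synthase from mRNAs of the mitochondrial genome. Its RNAs are transcribed inside the organelle, but its proteins are encoded in the nucleus, made by cytoplasmic ribosomes and imported. Some of them descend from bacterial ribosomal proteins, and others were added during the evolution of mitochondria. EBs are the progeny of intestinal stem cells that become absorptive enterocytes, a cell type rich in mitochondria, or, as the paper describes, secretory enteroendocrine cells.

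The values of a library differ by whole multiples of a smallest unit, its step, and the libraries summed to 38646207 to 45955837 steps in Sox21a EBs and 37286049 to 42961209 steps in control EBs. The Sox21a transcript did not serve as a check of genotype, since its level did not separate the groups and the alleles are small deletions. The marker calls that follow stand beside 23.6% of all tested transcripts called higher and 11.3% called lower. Of 6 progenitor markers, 1 was higher (arm) and 2 were lower (esg and E(spl)mbeta-HLH) in Sox21a EBs, and the list summed to between 40488 and 52780 normalized reads in Sox21a EBs, against 66212 to 82332 in control EBs. Of 9 enterocyte markers, 7 were lower (6 with the replicate number as a block, Myo31DF being lost at an adjusted p of 0.0577), with sums of 24109 to 30005 in Sox21a EBs and 62123 to 110587 in control EBs. Enteroendocrine markers summed to between 2261 and 5953 in Sox21a EBs, against 783 to 1225 in control EBs, with 2 higher and 1 lower among 7 tested. Tracheal markers summed to between 1554 and 2296 in Sox21a EBs, against 696 to 965 in control EBs (2 of 3 tested higher). The means of these 5 markers had a median of 16.9 and a maximum of 1328, so that 1 gene made up most of the sum. The list holds btl, which the paper reports as raised in Sox21a EBs themselves, with a reporter seen in some of them. Visceral muscle markers summed to between 144 and 145 in Sox21a EBs, against 57.9 to 102 in control EBs (1 of 3 tested higher). Haemocyte markers summed to between 109 and 131 in Sox21a EBs, against 239 to 278 in control EBs (the 1 tested was lower). The defining markers Mhc, Mlc1, up, wupA, Hml, NimC1, Pxn and eater had a mean under 10. So did the enteroendocrine markers AstA and CCHa1 and the tracheal markers verm and vvl. The part of this cell makeup in the results below was not tested, and in bulk libraries fewer cells of a type and less RNA per cell cannot be told apart.

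Every member was measured well above the floor of the table, and all 73 passed the filter of a mean of 10. Their means ranged from 177 normalized reads (mRpL48) to 3354 (mRpL28), with a median of 1189. By mean value they ranked between place 1286 and place 6713 among the 17321 genes, with a median rank of 2954. The highest means after mRpL28 were those of mRpS7 (3214), mRpL35 (3209), mRpS28 (2726) and mRpS31 (2602). The lowest after mRpL48 were those of mRpS25 (188), mRpL2 (288), mRpL22 (310) and mRpS18C (437). Genes for proteins of the same ribosome thus differed widely in normalized reads. How far the amplification of the mRNA shaped such differences between genes, here and per kilobase below, was not tested.

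Most members are short genes, with a median transcript length of 740 bases. Per kilobase of transcript the level still ran between 224 (mRpL48) and 4273 (mRpL35), with a median of 1460. mRpL35, a bacterial-type protein of the large subunit, stood at 5033 per kilobase in Sox21a EBs and 3512 in control EBs. mRpS7, which in bacteria organizes the head of the small subunit, had 4501 per kilobase in Sox21a EBs and 3647 in control EBs. mRpL2, a protein of the peptidyl transferase centre in bacteria, had 320 per kilobase in Sox21a EBs and 234 in control EBs. mRpL12, the mobile stalk protein that is held in several copies by each ribosome, ranked among the 7 highest, at 2985 per kilobase in Sox21a EBs and 2227 in control EBs. The order of the members was well kept among libraries. Over the 73 members the correlation of log2 values was 0.958 to 0.991 between libraries of a group and 0.929 to 0.952 between Sox21a and control libraries. These correlations share transcript length and sequence composition and are a description.

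Most members had a small positive log2 fold change, and a minority of them passed the test. The median member had 1225, 1274 and 1531 normalized reads in the 3 Sox21a libraries, against 984, 846 and 1045 in the 3 control libraries. All 3 Sox21a medians were above all 3 control medians. The log2 fold change (Sox21a over control, on log2(value + 1)) was positive in 69 of 73 members (94.5%), against 63% of the 11400 transcripts tested. Its median was 0.46, and the middle 50% of members lay between 0.30 and 0.57. For all transcripts tested the median was 0.21 and the middle 50% lay between -0.23 and 0.62. With 1 transcript per gene, read as for the members, 65.5% of 9571 tested genes were positive. Their median was 0.24 and their middle 50% lay between -0.18 and 0.63. The members thus formed a narrow peak within the upper part of the general distribution.

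**Figure D1:**
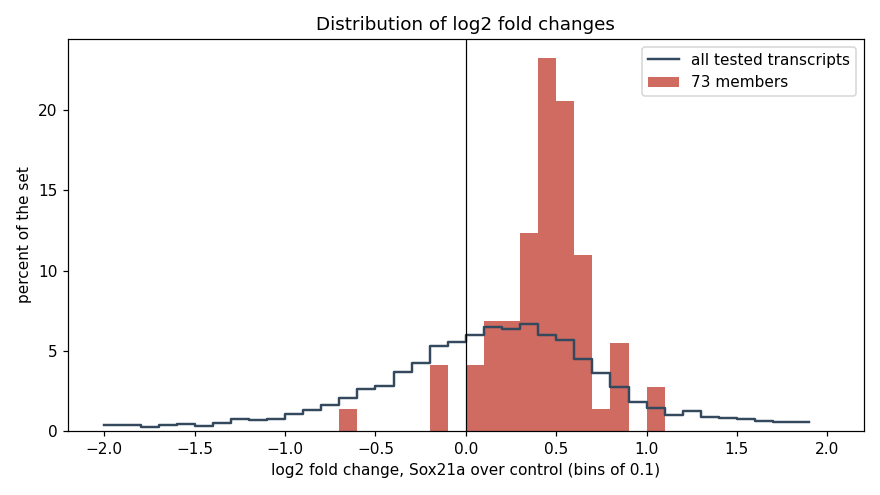
Log2 fold change of Sox21a over control EBs (x axis, bins of 0.1) for the 73 members (bars) and for all 11400 tested transcripts (line), each as a percent of its set (y axis). The middle 50% of members fall between 0.30 and 0.57, and 4 members lie below 0.

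By limma with Benjamini-Hochberg adjustment over all transcripts, 21 members were higher in Sox21a EBs (adjusted p under 0.05), 1 was lower and 51 were not called. Of all transcripts tested 23.6% were called higher and 11.3% lower, so that the share of members called higher (28.8%) was near the background, while the single lower call was below it. With 1 transcript per gene, 24.2% of 9571 tested genes were called higher, and 977 of them lower. In 46 members the lowest Sox21a library was above the highest control library, against 34.8% of all tested transcripts, in 1 member the highest Sox21a library was below the lowest control library (16.6% of all), and in 26 the groups overlapped. The 21 members called higher were 1.44 to 2.14 times as high by the ratio of means, with a median ratio of 1.58. Among the 51 members not called, 25 had groups that did not overlap, with log2 fold changes of 0.31 to 0.67 and adjusted p values of 0.0506 to 0.227. With replicate numbers as a block 25 members were higher and 1 was lower, against a background of 25.1% higher and 12.1% lower.

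The number of calls depended on single libraries and on the scale. Without Sox21a replicate 1, 2 or 3 it was 7, 8 or 7 higher members. Without control replicate 1, 2 or 3 it was 27, 6 or 12. The shares of all transcripts called in these 6 fits are not given here, so whether the change was particular to the members was not tested. Sox21a replicate 3 had the highest Sox21a value for all 73 members, and control replicate 2 had the lowest control value for 58. When the libraries were rescaled by median-of-ratios factors, the median of all tested transcripts moved to 0.02 (a shift of more than 0.1) and that of the members to 0.26. On that scale 8 members were higher and 1 was lower, with a background of 16.6% higher and 16.8% lower, and 62 of 73 members were positive, against 51.1% of all transcripts. Sox21a replicate 3 then had the highest Sox21a value for 60 members, and control replicate 2 the lowest control value for 33.

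**Figure D2:**
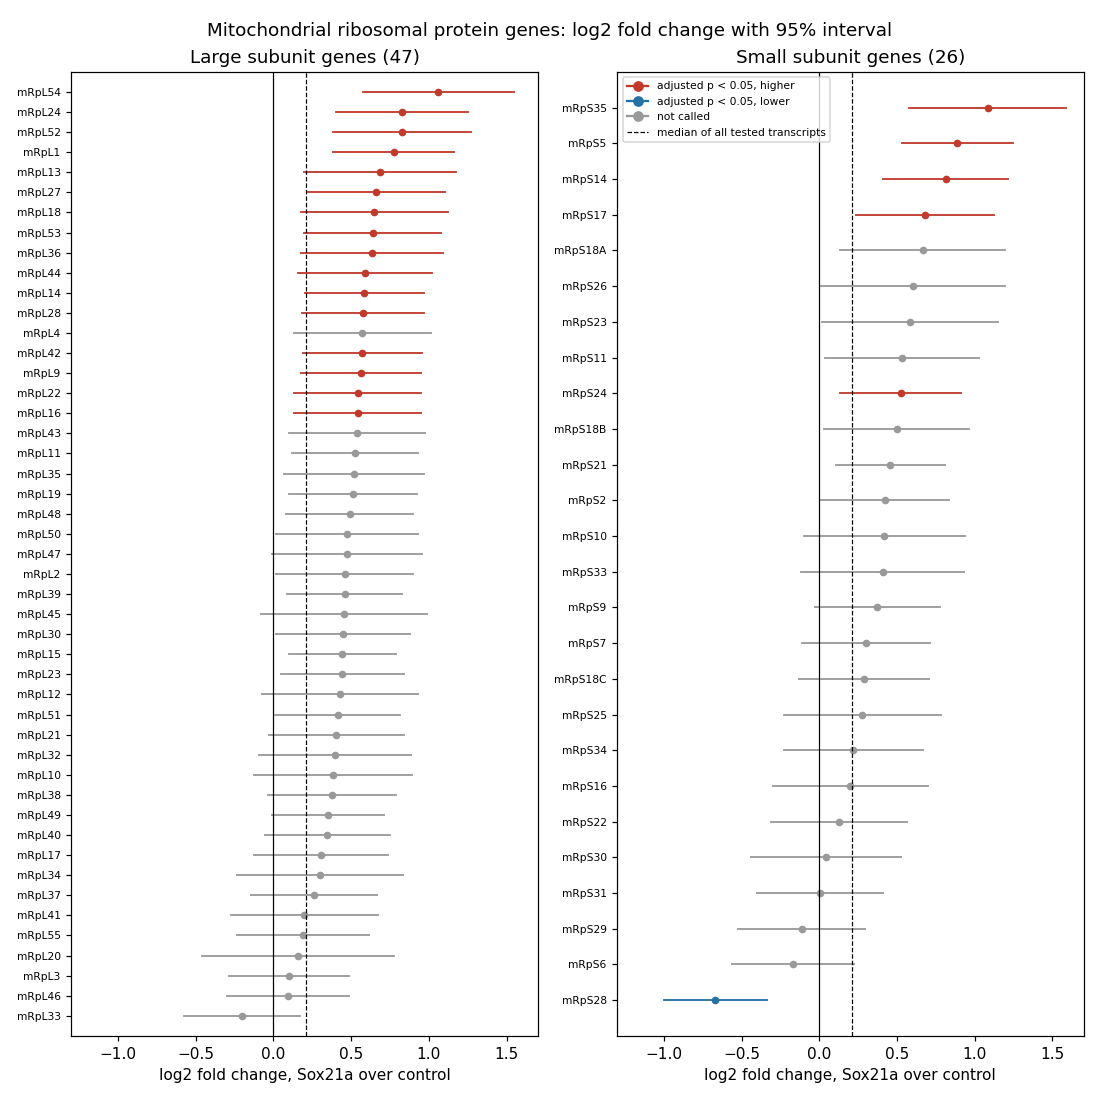
Log2 fold change of Sox21a over control EBs (x axis, point) with its 95% interval (line) for every member, large subunit on the left and small subunit on the right. Red marks the 21 members called higher and blue the 1 called lower, and the dashed line is the median of all tested transcripts (0.21).

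In every one of the other fits, 6 that each left out a library and 10 that changed the processing, 6 members were called higher. They were mRpS5, mRpS14, mRpS35, mRpL1, mRpL24 and mRpL54. The share of all transcripts called in every fit is not given here, so this count has no background and is no result about the family.

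mRpS5, which in bacteria lines the channel where mRNA enters the small subunit, is on chromosome 3L (24537236 to 24543534, plus strand, release 6 of the genome). It had 795, 860 and 874 normalized reads in Sox21a EBs, against 476, 401 and 492 in control EBs. Its Sox21a libraries lay within a narrow range well above the control libraries. The log2 fold change was 0.89 ± 0.15 (SE, limma adjusted p = 0.00476).

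mRpS35, a protein of the small subunit, is on chromosome 3L (2780899 to 2782105, plus strand). It had 1812, 1882 and 2712 normalized reads in Sox21a EBs, against 966, 860 and 1167 in control EBs. Its log2 fold change of 1.08 ± 0.21 (SE, limma adjusted p = 0.0086) was the largest of the 73. In both groups replicate 3 was the highest library.

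mRpL54, a protein of the large subunit with no bacterial counterpart, is on chromosome 2R (21060789 to 21061587, plus strand). It had 1798, 1824 and 2509 normalized reads in Sox21a EBs, against 955, 822 and 1153 in control EBs. The lowest Sox21a library was well above the highest control library, and the log2 fold change was 1.06 ± 0.21 (SE, limma adjusted p = 0.00797).

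mRpS14, which in bacteria binds the head of the small subunit, is on chromosome X (19479382 to 19480238, minus strand). It had 730, 640 and 882 normalized reads in Sox21a EBs, against 435, 395 and 440 in control EBs. The control libraries were close together, and the log2 fold change was 0.81 ± 0.17 (SE, limma adjusted p = 0.0108). It overlaps CG32533 by 30 bases on the same strand and Naa15-16 by 255 bases on the other strand, so that some reads may be shared.

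mRpL1, which in bacteria forms the mobile stalk where the spent tRNA leaves the ribosome, is on chromosome 3R (8301440 to 8302770, plus strand). It had 1757, 1806 and 2100 normalized reads in Sox21a EBs, against 1214, 951 and 1155 in control EBs. The groups did not overlap, and the log2 fold change was 0.77 ± 0.17 (SE, limma adjusted p = 0.0121).

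mRpL24, which in bacteria lies at the mouth of the tunnel through which the new protein leaves, is on chromosome 2L (4944256 to 4945361, minus strand). It had 2409, 2412 and 3225 normalized reads in Sox21a EBs, against 1508, 1346 and 1645 in control EBs. Sox21a replicate 3 stood above the other 2, which were nearly equal. The log2 fold change was 0.83 ± 0.18 (SE, limma adjusted p = 0.0125).

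mRpL52 (chromosome 2R, 7673721 to 7674400, minus strand), a mitochondrial addition to the large subunit, had 810, 808 and 1099 normalized reads in Sox21a EBs, against 567, 444 and 510 in control EBs. Its log2 fold change of 0.83 ± 0.19 (SE, limma adjusted p = 0.0148) passed the threshold in all but 1 of the fits with a library removed (highest adjusted p = 0.0518). mRpS17 (log2 fold change 0.68, limma adjusted p = 0.0295) was the only other higher member that was also called on the rescaled values, but it was called in 1 of those 6 fits.

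mRpS28 went the other way. This small subunit gene lies on chromosome 2R (18614210 to 18615018, minus strand). It had 2021, 2062 and 2232 normalized reads in Sox21a EBs, against 3549, 3266 and 3228 in control EBs. All 3 Sox21a libraries were below all 3 control libraries, with little spread in either group, and the log2 fold change was -0.67 ± 0.14 (SE, limma adjusted p = 0.011). Its call was lost without Sox21a replicate 2 (adjusted p = 0.059), and on the rescaled values it fell by 0.86 (limma adjusted p = 0.00311). Per kilobase it had 3046 in Sox21a EBs and 4845 in control EBs, where it was the highest of all members. It overlaps CG10927 on the other strand by 46 bases.

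**Figure D3:**
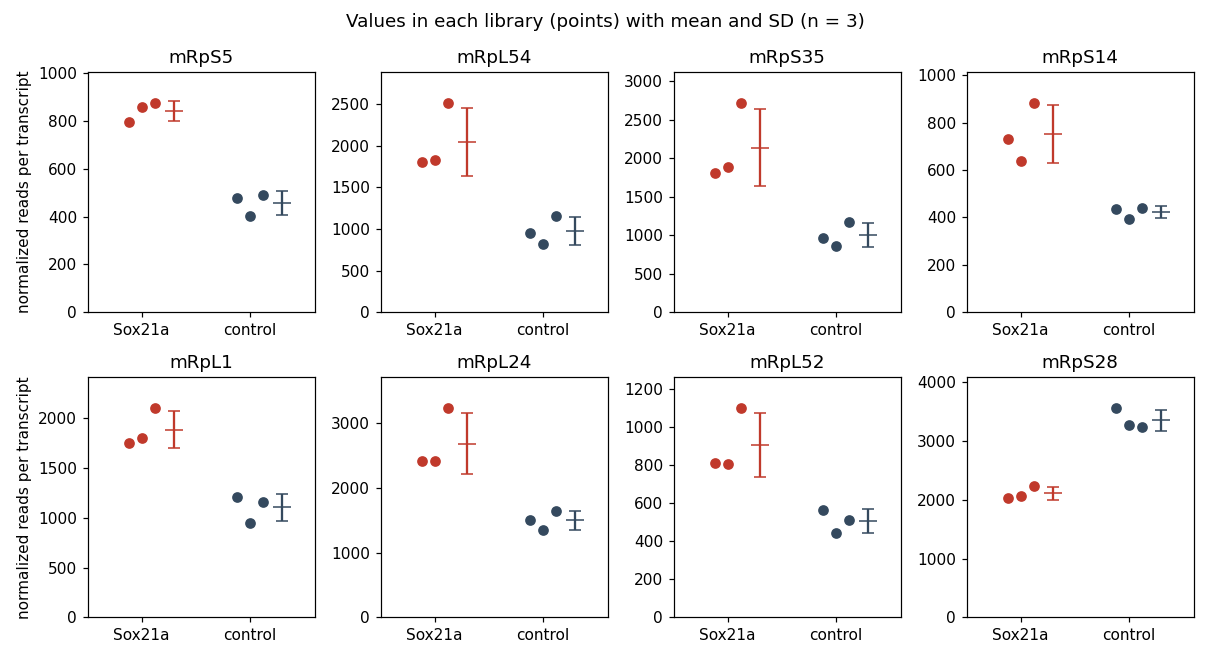
Normalized reads per transcript (y axis) in the 3 Sox21a libraries (left, red) and the 3 control libraries (right, dark) for the 6 members called higher in every fit, mRpL52 and mRpS28, with the mean and SD beside the points. The groups do not overlap in any panel, and mRpS28 is the only gene with Sox21a below control.

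The counts of structural groups here and below stand beside 23.6% of all transcripts called higher and 11.3% called lower. The groups are small, and none was tested against those shares. The proteins around the active site of the large subunit were mixed. Of 4 members whose bacterial homologues shape the peptidyl transferase centre, mRpL27 (log2 fold change 0.66, limma adjusted p = 0.0321) and mRpL16 (0.54, limma adjusted p = 0.0485) were higher. mRpL16 was called from 1 of its transcripts, while its other transcript, at a lower level, had a log2 fold change of 0.05 (limma adjusted p = 0.858). It lost its call in all 6 fits that left out a library. mRpL2 had 313, 318 and 365 normalized reads in Sox21a EBs, against 272, 192 and 267 in control EBs (limma adjusted p = 0.0966). mRpL3 had 927, 993 and 1154 in Sox21a EBs, against 903, 883 and 1079 in control EBs, so that its groups overlapped.

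Along the path of the new protein, mRpL22, which narrows the tunnel, was higher (log2 fold change 0.54, limma adjusted p = 0.0468), but not with the replicate block (adjusted p = 0.0532). Its neighbour mRpL4 (0.57) was not called without the block (adjusted p = 0.0515) and was called with it (adjusted p = 0.0483). At the tunnel mouth mRpL24 was higher, and mRpL23 (0.44), mRpL45 (0.45) and mRpL47 (0.47) did not pass, though mRpL47 was called with the block (adjusted p = 0.0497). mRpL45, which in mammals helps to hold the ribosome at the inner membrane, had 1980, 2048 and 2772 normalized reads in Sox21a EBs, against 1593, 1316 and 2086 in control EBs, and its groups overlapped.

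The stalk that recruits elongation factors, made of mRpL10, mRpL11 and mRpL12, had 0 of 3 members called, with log2 fold changes of 0.38 to 0.52. mRpL11 passed with the replicate block (adjusted p = 0.0343). At an unadjusted p under 0.05, 41 of the 73 members were higher and 1 was lower, against 31.7% and 15.1% of all transcripts.

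Of 7 members of the central protuberance, which in the mitochondrial ribosome is enlarged by proteins without bacterial counterparts, 1 was higher, mRpL18 (log2 fold change 0.65, limma adjusted p = 0.0424). The median of the 7 was 0.35. mRpL46 (0.09) and mRpS30 (0.04) were the lowest of them and had overlapping groups. mRpS30 carries an S symbol, but in the mammalian mitochondrial ribosome it and mRpS18A belong to the large subunit.

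The remaining large subunit calls were mRpL9, mRpL13, mRpL14, mRpL28 and mRpL36, which have bacterial homologues, and mRpL42, mRpL44 and mRpL53, which do not, mRpL44 being related to RNase III. Their log2 fold changes were 0.56 to 0.69. mRpL28, the most abundant member, had 3780, 3980 and 4252 normalized reads in Sox21a EBs, against 2925, 2255 and 2932 in control EBs. mRpL53 was not called with the replicate block (adjusted p = 0.0577). mRpL53 and mRpL13 overlap another gene on the same strand over their whole length (CG33155 by 1470 bases and CG10602 by 1221 bases), so that their values may hold reads of those genes and are uncertain. mRpL53 also overlaps AGO1 on the other strand by 1470 bases.

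In the small subunit, both members at the mRNA entry channel, mRpS5 and mRpS24, were higher, mRpS24 by 0.52 (limma adjusted p = 0.0449), which was not called with the block (adjusted p = 0.0546). mRpS24 overlaps TBC1d7 on the other strand by 387 bases, so that some of its reads may be shared. Of 6 members in the head 1 was higher, mRpS14, and the median of the 6 was 0.34. mRpS29, a GTP-binding protein of the head, had 1191, 1315 and 1540 normalized reads in Sox21a EBs, against 1517, 1258 and 1600 in control EBs. Of 4 members on the platform 0 were called, with log2 fold changes of -0.17 (mRpS6) to 0.53 (mRpS11), and mRpS11 was called with the block (adjusted p = 0.0473). The platform protein mRpS6 had 507, 534 and 630 normalized reads in Sox21a EBs, against 715, 582 and 582 in control EBs. Besides mRpS28, mRpS6 and mRpS29, only mRpL33, a small bacterial-type protein of the large subunit, had a negative log2 fold change (-0.20, limma adjusted p = 0.355). mRpS18A, mRpL19 and mRpL35, which were not called without the block, were the other members called with it (adjusted p = 0.0305, 0.0382 and 0.0349).

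By symbol, 16 of 47 large subunit genes (34.0%) were higher and 0 were lower, and 5 of 26 small subunit genes (19.2%) were higher and 1 was lower, against 23.6% higher and 11.3% lower among all transcripts. The median log2 fold change was 0.47 for the large and 0.41 for the small subunit, and the difference between the subunits was not tested. The small subunit genes were more spread, with an SD of 0.36 over genes, against 0.21 for the large subunit. The members were also sorted by the prefix of their unified ribosomal protein names, u or b for bacterial homologues and m for mitochondrial additions. By this sort 15 of 43 homologues (34.9%) were higher and 0 were lower (median 0.46), and 5 of 28 mitochondrial additions (17.9%) were higher and 0 were lower (median 0.43), beside the same 23.6% and 11.3%. The remaining 2 members, mRpS28 and mRpS35, were not sorted, because their names are not used uniformly. Of 9 mitochondrial additions to the small subunit 0 were called and the median was 0.28, and mRpS18B was the single one whose groups did not overlap. By the prefix mRpS18A and mRpS18B count as additions, though they share the S18 symbol with mRpS18C, which counts as a homologue. On the rescaled values the counts of higher genes were 4 of 47 for the large and 4 of 26 for the small subunit, beside 16.6% of all transcripts higher and 16.8% lower, so that the higher count of the large subunit was not seen on that scale.

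Summed over all members, the family came to 0.256%, 0.237% and 0.273% of the summed values in Sox21a EBs, against 0.213%, 0.167% and 0.193% in control EBs. The members were summed over 1 transcript per gene and the libraries over all 19674 transcripts. Where transcripts share reads, these percentages are therefore not shares of a library's reads. Ratios within a library do not depend on how libraries are scaled to each other. By symbol, the summed large subunit value was 2.02, 2.03 and 2.02 times the small subunit value in Sox21a EBs, against 1.68, 1.74 and 1.80 times in control EBs. These sums and those below count mRpS30 and mRpS18A as small and leave out the small subunit genes tko and bonsai. A ratio by structure is not given here. The ratio averaged 2.02 ± 0.00875 in Sox21a EBs and 1.74 ± 0.0597 in control EBs (SD, n = 3 each), and the groups did not overlap. mRpS28 made up 6.01 ± 0.495% of the small subunit sum in Sox21a EBs and 11.6 ± 1.02% in control EBs (SD, n = 3 each). Without mRpS28 the ratio was 2.15 ± 0.0188 in Sox21a EBs and 1.96 ± 0.0586 in control EBs (SD, n = 3 each), which still did not overlap. With every gene weighted equally, as the mean log2 value of the large minus that of the small subunit, it was 0.14 ± 0.00414 in Sox21a EBs and 0.03 ± 0.07 in control EBs (SD, n = 3 each), and the groups did not overlap. Without mRpS28 that difference was 0.17 ± 0.00802 in Sox21a EBs and 0.11 ± 0.07 in control EBs (SD, n = 3 each), and the groups overlapped. With 3 libraries against 3 an exact permutation test cannot give a two-sided p below 0.1, and none was run on these sums.

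**Figure D4:**
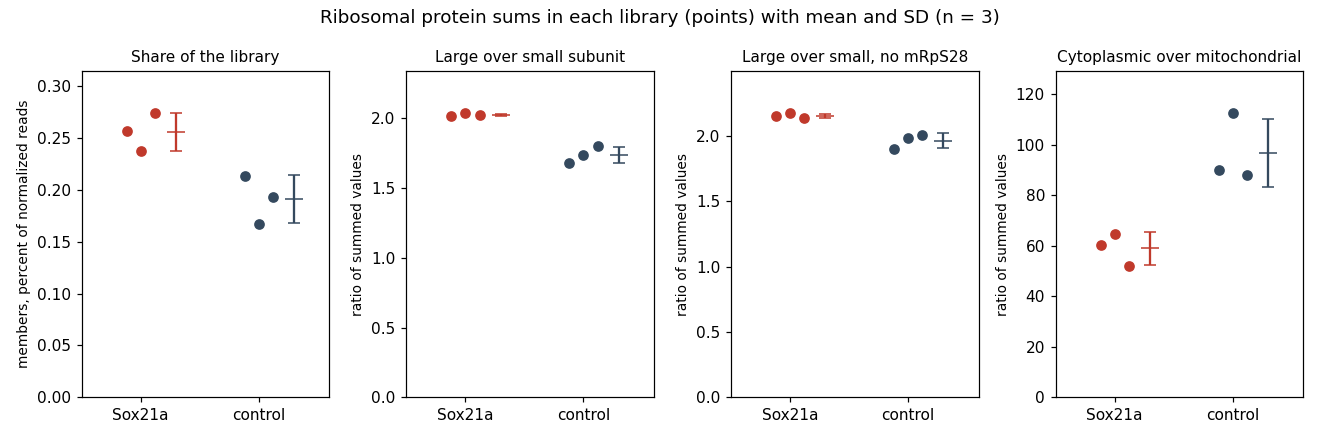
Sums over ribosomal protein genes in the 3 Sox21a libraries (left, red) and the 3 control libraries (right, dark), with the mean and SD: members as a percent of normalized reads summed over all transcripts, the large over small subunit ratio (by symbol) with and without mRpS28, and the ratio of cytoplasmic to mitochondrial ribosomal protein sums. Sox21a libraries are higher in the first 3 panels and lower in the last, with no overlap.

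Most genes listed for the cytoplasmic ribosome had negative log2 fold changes (80 of 87 tested), and 67 of the 87 were not called. Of the 87, 19 were lower and 1 was higher, with a median of -0.39, against 11.3% lower and 23.6% higher among all transcripts. The lower calls include RpL7-like, RpL24-like and RpLP0-like (limma adjusted p = 0.0179, 0.0333 and 0.0326). Whether the proteins of these -like genes are part of the mature ribosome was not checked. With the replicate block 14 were lower and 1 was higher (12.1% and 25.1% of all). After rescaling 59 were lower and 1 was higher, with a median of -0.58 (16.8% and 16.6% of all). RpL29, a large subunit protein, had 11029, 12208 and 13350 normalized reads in Sox21a EBs, against 19858, 21748 and 19725 in control EBs. The transcript called higher, RpS19b, is a paralogue at a low level, with 39.0, 25.0 and 25.6 normalized reads in Sox21a EBs and 7.24, 11.2 and 5.17 in control EBs. The sum of cytoplasmic ribosomal protein transcripts was 60.3, 64.8 and 51.9 times that of the mitochondrial ones in Sox21a EBs, against 90.0, 112 and 88.1 times in control EBs. The Sox21a libraries were all below the control libraries, and this ratio does not depend on the scaling of the libraries.

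Among other genes of the mitochondrial ribosome, tko and bonsai encode small subunit proteins but carry no mRp symbol. bonsai had 2645, 2790 and 3611 normalized reads in Sox21a EBs, against 1737, 1799 and 2166 in control EBs (log2 fold change 0.66, limma adjusted p = 0.0306). tko had a log2 fold change of 0.47 (limma adjusted p = 0.0852). The shares in the next lists stand beside 23.6% of all transcripts called higher and 11.3% called lower. Of 9 translation factors 1 was higher, mRRF1, which recycles the ribosome after release of the protein (0.79, limma adjusted p = 0.0139), and 0 were lower, with a median of 0.31. mIF2, which brings the initiator tRNA, had 219, 226 and 222 normalized reads in Sox21a EBs, against 357, 276 and 292 in control EBs. It was not called on the deposited scale (limma adjusted p = 0.0587) and was lower on the rescaled values (limma adjusted p = 0.0137). Of 17 genes that charge mitochondrial tRNAs 1 was higher, GatC, a subunit of the glutamyl-tRNA amidotransferase (0.90, limma adjusted p = 0.0182), and 0 were lower, with a median of 0.33.

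Of 13 genes for transcription and RNA handling in mitochondria 4 were higher (30.8%, near the 23.6% of all transcripts) and 0 were lower, with a median of 0.45. MTPAP, the mitochondrial poly(A) polymerase, had 1111, 928 and 841 normalized reads in Sox21a EBs, against 308, 271 and 378 in control EBs. This was a log2 fold change of 1.59 ± 0.19 (SE, limma adjusted p = 0.000997), larger than that of any member. mtTFB2, a transcription factor of the organelle (0.99, limma adjusted p = 0.0082), mtTFB1, its relative that methylates the small subunit rRNA (0.70, limma adjusted p = 0.0355), and mTTF, which binds mitochondrial DNA between transcription units (0.45, limma adjusted p = 0.0467), were the others. With the block mTTF was not called (adjusted p = 0.0625), SLIRP1 (0.51, adjusted p = 0.046) and mTerf3 (0.56, adjusted p = 0.0456) were, and on the rescaled values neither mtTFB1 (adjusted p = 0.0747) nor mTTF (adjusted p = 0.165) was.

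The products and partners of mitochondrial translation were described in the same way. Of 68 nuclear transcripts for respiratory chain and ATP synthase subunits 33 were higher and 0 were lower (48.5%, against 23.6% of all), with a median of 0.57, and after rescaling 22 were higher with a median of 0.38 (16.6% of all). With the replicate block 42 of the 68 were higher, against 25.1% of all. COX7B, a subunit of cytochrome c oxidase, had 10470, 10603 and 12180 normalized reads in Sox21a EBs, against 5494, 5898 and 7083 in control EBs. ND-B14.7, a subunit of complex I, had 5016, 5334 and 5946 in Sox21a EBs, against 2666, 2708 and 3360 in control EBs. The 13 mRNAs of the mitochondrial genome itself had 0 members called in either direction, log2 fold changes of 0.02 to 0.43 and a median of 0.15, which was -0.04 on the rescaled values.

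**Figure D5:**
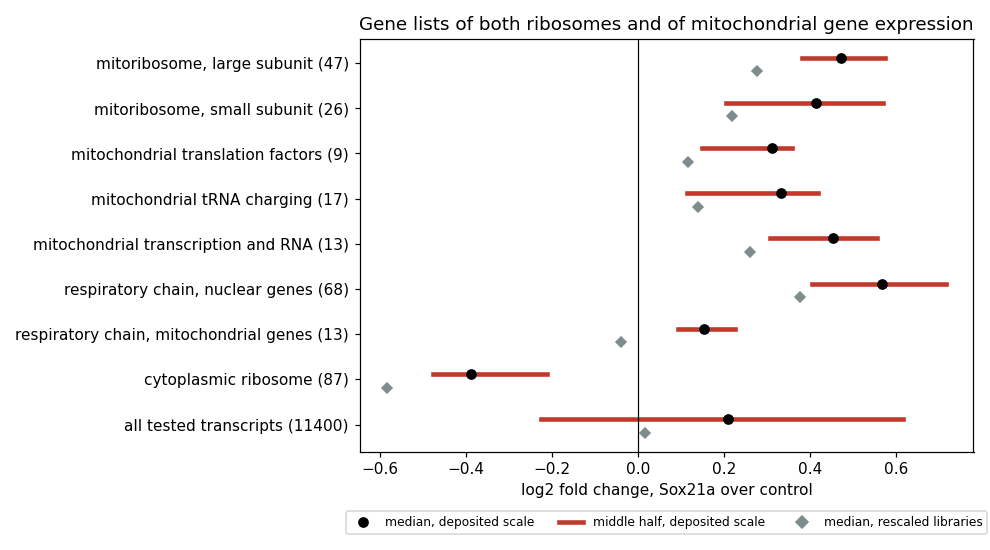
Log2 fold change of Sox21a over control EBs (x axis) for each gene list (rows, number of tested transcripts in brackets): median on the deposited scale (circle), middle 50% (bar) and median on rescaled libraries (diamond). The large subunit (median 0.47), the small subunit (0.41) and the nuclear respiratory chain list (0.57) lie above all transcripts (0.21), and the cytoplasmic ribosome (-0.39) lies below 0.

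Of 9 regulators linked to growth or mitochondrial genes 3 were lower (11.3% of all transcripts were) and 0 were higher. Myc, a driver of ribosome production, had 31362, 28070 and 34206 normalized reads in Sox21a EBs, against 55634, 80427 and 76158 in control EBs (log2 fold change -1.17, limma adjusted p = 0.00393). srl, the fly relative of the PGC-1 coactivators of mitochondrial genes, had 753, 794 and 1155 in Sox21a EBs, against 1527, 1486 and 1772 in control EBs (-0.85, limma adjusted p = 0.0188). ewg, the fly relative of NRF-1, was lower by the same test (-0.60, adjusted p = 0.0423).

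In the genome the members are scattered over all large chromosome arms, 12 on 2L, 12 on 2R, 17 on 3L, 21 on 3R and 11 on X, in shares near those of all protein-coding genes. A shared feature that the symbols did not select was their arrangement. The start of a protein-coding gene on the other strand lay within 500 bases of the start of 52 of the 73 members (71.2%), against 3688 of 13986 protein-coding genes (26.4%). The members with such a partner had a median log2 fold change of 0.46, and the 21 without had 0.43. The partners themselves, 49 tested genes that are no members, had a median of 0.17, with 9 higher and 7 lower. Among all tested transcripts the median was 0.21, with 23.6% higher and 11.3% lower, so the partners were near the background. Over these 49 pairs the log2 fold changes of member and partner had a Pearson correlation of 0.09 and a Spearman correlation of 0.18, given as a description of pairs from the same libraries. Over the 73 members the log2 fold change had a Pearson correlation of 0.01 with log2 level and 0.02 with log2 transcript length. In all, 43 members overlap another gene, 42 of them on the other strand, counted over whole gene spans. Since the kit does not mark strand, reads in those stretches cannot be assigned to either gene. Not all overlaps were short. On the other strand mRpS9 shared 874 bases with ArgRS-m, mRpS24 387 with TBC1d7 and mRpS21 234 with CG8870.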

How the data were processed

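RNA was isolated from sorted EBs, amplified by linear amplification and sequenced as pairs. According to the methods, the authors used Bowtie2 to map the pairs to release 6 of the fly genome, and counts of pairs in exons were divided by size factors. The deposited values are therefore a signal, normalized reads per transcript. In each library every value was a whole multiple of 1 step (tolerance 0.01 steps), and the smallest was 2 steps. Whether 2 was added or served as a floor is not given in the sources used here, nor is the use of strand in counting. A second deposited table of the authors' comparisons (fold changes and p-values) was not used. No per-library column was left out (0).

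Every transcript whose mean over all libraries reached 10 was tested on log2(value + 1) in limma 3.58.1 under R 4.3.3, using lmFit and eBayes with no trend, with Benjamini-Hochberg adjustment over all 11400 and calls at an adjusted p under 0.05. The script was tested on simulated data. The pseudocount of 1 shrinks the fold change of transcripts at low values. The labels call the replicates biological, and p-values measure the spread between these pools. Amplified reads are not independent molecules, and no counting interval was given. Same-numbered libraries, by the numbers in the sample titles, deviated together from their group means, with correlations of 0.171, 0.129 and 0.124 over all tested transcripts. The mean of -0.0703 for libraries of different number follows from centring on the group means and is no separate observation. Because of the shared deviations, a fit with the number as a block is given where it changes the call of a member or a count of a list.

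Genes were matched to the release 6 annotation, 71 members by identifier and 2 by symbol, for position, length and neighbours. Subunit roles and gene lists were set by hand. The members and lists were chosen with earlier results of these data known. Named genes were every called member, the 5 highest and 5 lowest members by mean and by fold change, members with a stated role and genes of the lists. mEFG2, PheRS-m, SLIMP and LRPPRC2 were on the lists but not matched under those symbols, and mEFG2 was counted as mRRF2. Alternatives were other pseudocounts (0.1 and 10), filters (none, or a mean of at least 100), thresholds, median-of-ratios rescaling (transcripts with a mean of at least 100), the block, limma's trend, subtraction of the smallest value, summed transcripts and leaving out each library.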

Additional observations from a re-analysis of the deposited data

How the results depend on the processing

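No called result changed direction in any setting, though 7 members with a positive log2 fold change were negative after rescaling (11 negative in all, against 4). The count of members called higher was 21, and it was within 1.5 times that count except in the following settings. It was 8 after median-of-ratios rescaling, with or without the replicate block, where the median log2 fold change of the members was 0.26 in place of 0.46. It was 3 at an adjusted p under 0.01, with 0 called lower, and 41 at an unadjusted p under 0.05. Without a single library it ranged between 6 and 27, with 0 to 1 called lower, and the median between 0.35 and 0.53. Among large subunit genes the 16 higher calls became 4 after rescaling (median 0.28), 5 with the block as well (median 0.28), 1 at an adjusted p under 0.01, 29 unadjusted and 3 to 18 without a library. Among small subunit genes the 5 higher calls became 3 on rescaled values with the block, 8 with limma's trend, 2 higher and 0 lower at 0.01, 12 unadjusted, and 3 to 9 higher and 0 to 1 lower without a library. Among bacterial homologues the 15 became 5 on rescaled values with or without the block (median 0.27), 1 at 0.01, 26 unadjusted and 4 to 17 without a library. Among mitochondrial additions the 5 became 9 with a mean of at least 100, 8 with the trend, 2 on rescaled values with or without the block, 1 at 0.01, 14 unadjusted and 1 to 9 without a library. The cause of these shifts was not tested, beyond the smaller number of libraries or the other threshold in each. For the fits without a library, the shares of all transcripts called are not given here, so those counts have no background beside them.

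The replicate block gave 25 higher members and 1 lower. It ended 3 calls (mRpL53, mRpS24 and mRpL22) and added 7, each given with its value above, and changed no other call among the members. The large over small ratio moved with summed transcripts to 2.10 in Sox21a EBs and 1.81 in control EBs, and with mRpS28 left out, a choice made after seeing the data, to 2.15 in Sox21a EBs and 1.96 in control EBs. Summing may count reads shared by transcripts of a gene more than once, which was not tested. The mRpL21 transcripts RB and RC, for example, had means of 1271 and 1443 normalized reads. The planned count tests with edgeR and DESeq2 were not run, since the table's smallest value is 2 steps and its values were not taken as recovered reads. The number of libraries, 3 of each group, limits which small fold changes can be called.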
